A study of Arabidopsis thaliana with 10 samples.

Results

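In dark-grown Arabidopsis hypocotyls kept short of gibberellin, 81 of the 33518 genes measured stood at least 2-fold higher after GA3, an active gibberellin, but held nearly the same level with and without GA3 when brassinosteroid synthesis was also blocked. They were chosen from the group means in the authors' deposited tables. A member had a mean of at least 50 normalized reads with GA3 and no brassinosteroid inhibitor, and a GA3-to-mock ratio of at least 2 there. Its GA3-to-mock ratio with the inhibitor lay between 0.8 and the inverse of 0.8, and its level in mock with the inhibitor was over 0.5 and under 4 times that without. Those values are the choice itself, so they are described here without a test. The main comparison is with the brassinosteroid mutant bzr1-1D, whose libraries the choice did not use. There 43 members or 53.1% were called higher and 9 or 11.1% lower, beside 14.5% and 15.0% of all genes tested. Of other GA3-raised genes 61.6% were higher, so the rise is not given as particular to the members. The wild-type mock level with the inhibitor, against which bzr1-1D was set, entered the choice only inside its ratio limits.

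All seedlings were of the Col-0 ecotype and had 1 µM paclobutrazol (PAC), which inhibits gibberellin synthesis, in the medium during 4.5 days of darkness. Wild type was grown without propiconazole (PPZ), an inhibitor of brassinosteroid synthesis, or on 2 µM PPZ, and each received 10 µM GA3 or a mock solution, and RNA was extracted after a further 12 hours. Seedlings of bzr1-1D, a dominant mutant, made up the remaining group and had both inhibitors and the mock solution. Levels with PPZ below are always those with PAC and PPZ. Each of the 5 groups had 2 RNA-seq libraries, and since nothing says that the repeats were separate cultures, p-values measure only the spread between these libraries. Every group carried PAC, so no group shows the level with gibberellin synthesis left running, and bzr1-1D was sampled only with PPZ and without GA3.

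Gibberellin acts by triggering the breakdown of DELLA proteins, which otherwise bind and block growth-promoting transcription factors. Brassinosteroid acts through a receptor kinase pathway that lets BZR1 and its relatives stay active in the nucleus, and the bzr1-1D mutation stabilizes BZR1 without the hormone. DELLA proteins also bind BZR1, and both hormones promote elongation of the hypocotyl in the dark.

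The libraries of each pair are named deeper and shallower by their number of reads, because no column says which is the repeat, and values of a pair are always given in that order. Reads recovered per library summed to 7987516 to 16285445, leaving out genes with unresolved reads, all of which had means of at least 10005. The pair in wild type on PAC stood furthest apart, with an SD of 0.24 in the log2 ratio of its libraries over genes, against 0.09 to 0.16 in the other pairs. That pair is the denominator of the GA3 ratio that chose the members. Without its shallower library the same rule chose 136 genes, of which 67 were among the 81. Leaving out any other wild-type library gave 72 to 98 genes, of which 59 to 74 were among the 81. The lowest overlap, 59, came without the deeper library on PAC and without the shallower library of wild-type mock on PAC and PPZ.

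Among genes with at least 50 normalized reads in GA3 on PAC, 16061 in all, 469 stood at least 2-fold higher with GA3. On PAC and PPZ the GA3 ratio of these was above the window in 343, below it in 19 and inside it in 107. Of the 107, 20 were left out because PPZ alone took them to 0.5 times or less and 6 because it took them to 4 times or more. The 388 GA3-raised genes that were not members had a median GA3 ratio of 1.71 on PAC and PPZ. The members had a median of 1.06 there, with a range from 0.832 to 1.23.

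On PAC the members' GA3 ratio ranged from 2.00 to 24.5 with a median of 2.29. It was under 2.5 in 50 members and at least 5 in 6, so most sat close to the 2-fold limit. The authors' deposited table called 77 of the 81 higher with GA3 on PAC at an adjusted p under 0.05, where 12.9% of all genes tested were. On PAC and PPZ that table called 0 members, where it called 13.3% of all genes tested, and 1 member had an unadjusted p under 0.05. Both counts follow from the rule. Both GA3 libraries were above both mock libraries in 80 members on PAC, where 33.6% of tested genes were. With PPZ, both GA3 libraries were above both mock libraries in 26 members, where 30.9% of tested genes were, and below both in 8, where 28.8% were. The rule used these means too, so nothing is read from these counts.

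**Figure D1:**
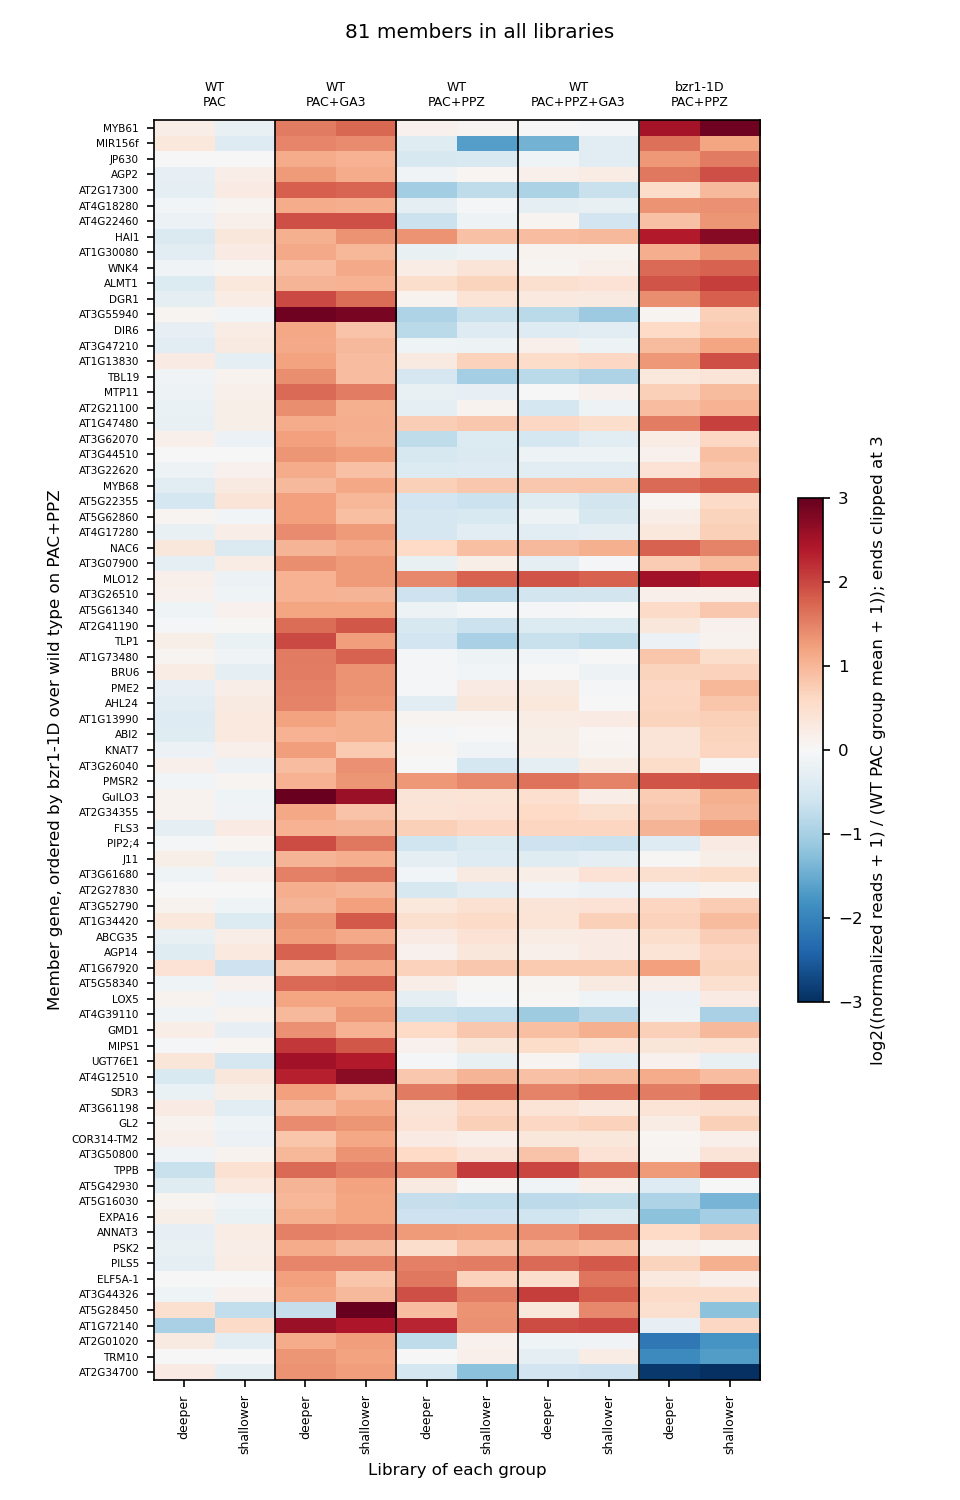
Levels of the 81 members (rows, ordered by their ratio in bzr1-1D over wild type) in the 10 libraries (columns, 2 per group), as log2 of (normalized reads + 1) over (the wild-type PAC group mean + 1), clipped at 3. The PAC+GA3 columns are red for nearly all rows by the rule, the PAC+PPZ and PAC+PPZ+GA3 columns look alike within each row, and the bzr1-1D columns run from red at the top to blue in the lowest rows.

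In bzr1-1D against wild type, both on PAC and PPZ, members were more often higher than lower. By the authors' deposited table, 43 of the 81 rose and 9 fell at a DESeq adjusted p under 0.05, and 29 were not called. That is 53.1% higher and 11.1% lower. Of all genes tested, 14.5% were higher and 15.0% lower. Of genes with at least 50 normalized reads in GA3 on PAC, 19.3% were higher and 19.3% lower. Ratios of bzr1-1D over wild type are the folds of the authors' deposited table, whose median over all 81 members was 1.48, beside 1.01 for genes of that level.

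The 388 GA3-raised genes that were not members also stood mostly higher in bzr1-1D. Of these, 61.6% were higher and 6.70% lower in the authors' deposited table, and their median ratio was 1.77. The members' share called higher was below that of the other GA3-raised genes, and no test was made of that difference. Of all 469 GA3-raised genes, members included, 60.1% were higher and 7.46% lower. The rise in bzr1-1D is therefore not given as particular to the members. The choice used the wild-type PAC and PPZ mean only inside its windows, and no bzr1-1D library. That mean stands below the line in the limited GA3 ratio with PPZ and in the bzr1-1D ratio. The upper limit on the first favours a high value of that mean, which lowers the second. Members and other GA3-raised genes are therefore set side by side only.

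Changes of at least 2-fold among the calls of the authors' deposited table numbered 24 higher, where 4.39% of tested genes were, and 5 lower, where 4.89% were. A second test, limma-voom on the recovered reads, called 47 of 79 members higher and 10 lower at an adjusted p under 0.05, where it called 23.2% and 23.4% of genes. Of these, 43 and 8 were also called by the authors. Both bzr1-1D libraries were above both wild-type libraries in 55 members, where 35.4% of genes were, and below both in 14, where 32.8% were. In what follows rose and fell are kept for members called in the authors' deposited table, and log2 changes with SE and adjusted p are from limma-voom with 2 libraries in each group.

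Against the level reached with GA3 on PAC, the members' median stood at 39.1% in wild type with PPZ, 42.3% with GA3 there and 59.3% in bzr1-1D. The members were chosen for a high GA3-on-PAC mean, which favours percentages under 100 in every other group, so these are a description only. They set means of different tables side by side, and fewer cells of a type and less RNA per cell cannot be told apart in whole hypocotyls.

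**Figure D2:**
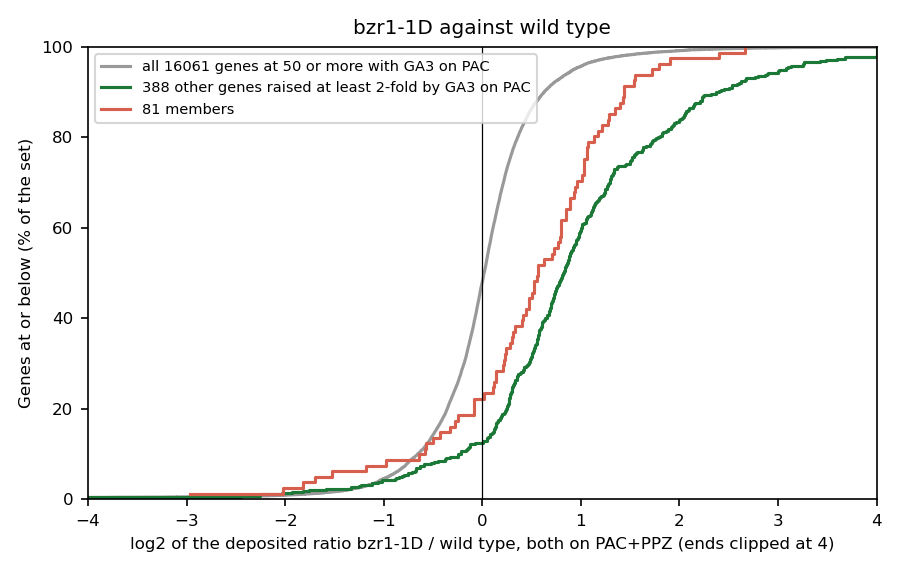
Share of genes (y axis, percent of the set) at or below each log2 ratio of bzr1-1D over wild type on PAC and PPZ (x axis, ends clipped at 4), for all 16061 genes at 50 or more with GA3 on PAC, the 388 other GA3-raised genes and the 81 members. The members' curve lies to the right of that of all genes except at its low end and to the left of the other GA3-raised genes over most of the range, with medians of 1.48, 1.01 and 1.77 as plain ratios for members, all genes and other GA3-raised genes.

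Markers of cell types moved with these groups. The summed level of 11 xylem markers, which include the secondary wall cellulose synthases, averaged 3062 normalized reads in wild type on PAC and 4516 with GA3. It was 2052 on PAC and PPZ, 2240 with GA3 there and 3358 in bzr1-1D, and the authors' deposited table called 7 of the 11 higher in bzr1-1D. By library it ran from 2031 to 2073 in wild type on PAC and PPZ and from 3078 to 3639 in bzr1-1D, without overlap. The 5 epidermis markers summed to 24771, 35348, 15625, 21165 and 23332 in the same order of groups, with 2 called higher and 1 lower in bzr1-1D.

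Of 11 root and root hair markers, 1 was called higher and 5 lower in bzr1-1D. They summed to 676, 1244, 661, 700.5 and 928, of which CASP1, a gene of the root endodermis, had 587, 1103, 230, 234 and 790, the larger part except in wild type with PPZ. The 6 seed reserve genes, for storage proteins and an oil body protein, were lower with GA3 in both settings. They summed to 19188 on PAC, 3292 with GA3, 36152 with PPZ, 7967 with GA3 there and 23946 in bzr1-1D, with 3 called lower in bzr1-1D. The 3 phloem markers summed to 2527, 3305, 2585, 2589.7 and 1985, with 1 called lower, and of 5 cotyledon mesophyll markers 1 was called higher and 4 lower. No marker of these lists was at 0 in any group, and the mesophyll markers summed to between 99791 and 190522, so the material labelled hypocotyl also held RNA of genes typical of mesophyll. The part of these cell types in the members' levels was not tested.

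**Figure D3:**
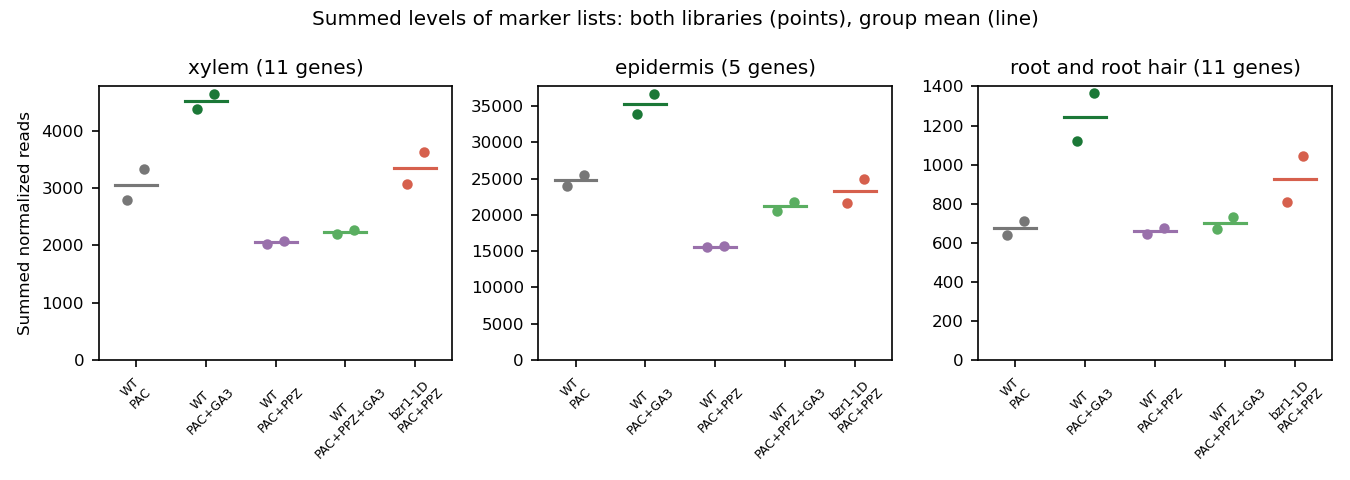
Summed normalized reads (y axis) of the xylem, epidermis and root marker lists in both libraries of each group (points) with the group mean (line). In the sums of all 3 lists the PAC+GA3 libraries are highest, and the bzr1-1D libraries are above those of wild type on PAC+PPZ. The root sum follows CASP1, at 230 in wild type on PAC+PPZ and 790 in bzr1-1D. Most other root markers went the other way, such as PRP3 at 143 and 37.6. Of the 11 root markers, 1 was called higher and 5 lower in bzr1-1D.

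The promoters of 5 members that changed most or hold hormone-related motifs are printed here as the 250 bases before the RefSeq gene start, 5′ to 3′ on the gene's strand, from assembly TAIR10.1. Capitals mark CACGTG, the G-box, and CGTGTG or CGTGCG, the sequences known as brassinosteroid response elements, on either strand. AGP2, JP630 and MYB61 rose in bzr1-1D, and TRM10 and AT1G72140 fell. The windows lie at chr2:9538964-9539213 on the minus strand and, on the plus strand, at chr1:8401558-8401807, chr1:3085851-3086100, chr4:7085629-7085878 and chr1:27141515-27141764.
AGP2: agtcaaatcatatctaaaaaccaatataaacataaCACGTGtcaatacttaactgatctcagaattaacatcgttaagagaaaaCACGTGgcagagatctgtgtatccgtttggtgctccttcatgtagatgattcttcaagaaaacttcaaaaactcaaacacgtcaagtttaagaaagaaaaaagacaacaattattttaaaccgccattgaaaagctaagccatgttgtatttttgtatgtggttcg
JP630: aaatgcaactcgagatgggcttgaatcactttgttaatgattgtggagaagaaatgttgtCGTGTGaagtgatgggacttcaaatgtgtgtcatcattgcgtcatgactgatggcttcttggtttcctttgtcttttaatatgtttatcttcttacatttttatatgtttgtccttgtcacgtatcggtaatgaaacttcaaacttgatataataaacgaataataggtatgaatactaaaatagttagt
MYB61: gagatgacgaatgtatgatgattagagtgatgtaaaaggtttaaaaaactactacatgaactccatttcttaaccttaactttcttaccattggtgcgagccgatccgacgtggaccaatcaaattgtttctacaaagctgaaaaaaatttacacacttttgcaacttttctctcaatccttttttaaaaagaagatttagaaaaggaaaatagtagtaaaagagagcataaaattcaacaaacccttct
TRM10: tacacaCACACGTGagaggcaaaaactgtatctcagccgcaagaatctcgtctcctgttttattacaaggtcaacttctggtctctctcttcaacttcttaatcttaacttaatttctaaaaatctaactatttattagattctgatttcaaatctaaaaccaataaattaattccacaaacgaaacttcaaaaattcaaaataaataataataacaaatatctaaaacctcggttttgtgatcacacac
AT1G72140: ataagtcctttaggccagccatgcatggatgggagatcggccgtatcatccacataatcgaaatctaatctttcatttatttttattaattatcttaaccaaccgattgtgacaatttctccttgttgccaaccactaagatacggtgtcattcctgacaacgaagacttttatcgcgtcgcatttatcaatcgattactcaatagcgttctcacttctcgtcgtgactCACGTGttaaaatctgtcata
The AGP2 window holds a pair of G-boxes and that of JP630 a CGTGTG. MYB61, which had the highest bzr1-1D ratio, holds none of these letters in this window. In TRM10 the capitals cover a G-box that overlaps CACACG, the reverse of CGTGTG, and AT1G72140 has a G-box near the gene start. Members that rose and members that fell thus both include windows with a G-box, and a match is not a site.

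Over the 78 protein-coding members, 8 windows or 10.3% held CACGTG, beside 6.60% of 26645 protein-coding promoters of the same length. CGTGTG was in 9 or 11.5%, beside 5.37%, and CGTGCG in 2 or 2.56%, beside 1.58%. Among the 42 protein-coding members that rose, 4 held CACGTG, and among the 8 that fell, 2 did. CGTGTG was in 5 of the 42 and 1 of the 8, and CGTGCG in 0 and 2. The core ACGT was in 60.3% of members and 44.2% of all promoters, and CANNTG in 56.4% and 55.3%, both of which also count every CACGTG.

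The auxin response motif TGTCTC was in 14.1% of members and 10.9% of all promoters, TGTCGG in 5.13% and 4.16%, and the gibberellin response motif TAACAAA in 17.9% and 16.2%. TATAAA was in 52.6% and 47.8%. TGGGCC, a motif found before many genes of translation, was in 2.56% of members and 13.9% of all promoters, and AAACCCTA, another such motif, in 2.56% and 4.45%. All motifs were searched on both strands, and no test was made of these shares.

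By their annotated roles, which were assigned after the members were known, the largest named group was cell wall and surface genes. In bzr1-1D 11 of these 15 rose, 2 fell and 2 were not called, with a median ratio of 2.20. Over all members 53.1% rose, and 60.1% of all GA3-raised genes and 14.5% of all genes tested were higher. The small counts by role, here and below, are set beside those shares without a test. None is read as a result about its role. The xylem and epidermis marker sums given above were also higher in bzr1-1D than in wild type with PPZ. The epidermis markers differed among themselves. From wild type with PPZ to bzr1-1D, KCS6 went from 3113 to 9443 normalized reads and FDH from 5519 to 7818. PDF1 went from 2510 to 2768, ATML1 from 1177 to 1169 and LTP1 from 3305 to 2133. The part of these cell types in the cell wall and surface group was not tested. AGP2 encodes an arabinogalactan protein, a heavily glycosylated protein of the cell surface. AGP2 had 365 and 494 normalized reads on PAC and 1040.2 and 935 with GA3. Wild type with PPZ gave 402 and 446, with GA3 there 479.8 and 504, and in bzr1-1D 1289 and 1649. The bzr1-1D libraries were the highest of all and did not overlap any other group. AGP2 rose in bzr1-1D by a log2 change of 1.77 ± 0.11 (SE, limma-voom adjusted p = 2.67e-07). In the authors' deposited table its ratio was 3.46.

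JP630 encodes a BURP-domain protein of the cell wall. JP630 had 194 and 196 normalized reads on PAC and 419.6 and 400.3 with GA3. When PPZ was present it stood at 139 and 143, with GA3 there 178 and 154, and in bzr1-1D 483 and 574. Its bzr1-1D libraries were above the GA3-on-PAC libraries, and PPZ left it below the PAC level with and without GA3. The log2 change in bzr1-1D was 1.89 ± 0.12 (SE, limma-voom adjusted p = 2.6e-07). AT4G18280, annotated as a glycine-rich cell wall protein, stood at 55.4 and 66.4 normalized reads in wild type with PPZ and 177 and 179 in bzr1-1D, a log2 change of 1.54 ± 0.16 (SE, limma-voom adjusted p = 8.16e-06). DGR1, a protein of unknown function found in cell walls, stood at 164 and 233 on PAC, 780.4 and 638 with GA3, 214 and 265 with PPZ and 244 and 238 with GA3 there. In bzr1-1D it rose to 520.2 and 694, below the level in GA3 on PAC in the deeper library and within it in the shallower.

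PME2, a pectin methylesterase that modifies pectin in the wall, stood at 154 and 189 normalized reads on PAC and PPZ and rose to 247 and 319.9 in bzr1-1D, with a log2 change of 0.71 ± 0.14 (SE, limma-voom adjusted p = 0.00168). AGP14, another arabinogalactan protein, was not called, at 84.4 and 96.6 with PPZ in wild type and 103 and 117 in bzr1-1D. EXPA16, an expansin of the family that loosens walls, went the other way. EXPA16 had 229.7 and 176 normalized reads on PAC and 428 and 466 with GA3. PPZ-grown wild type held 131 and 131, with GA3 there 134 and 151, and in bzr1-1D 85.5 and 100.3. It was lowest in bzr1-1D, without overlap. Its log2 change of -0.51 ± 0.14 (SE, limma-voom adjusted p = 0.0117) kept its sign but lost the limma-voom call without the deeper wild-type library, at -0.52, or without the deeper bzr1-1D library, at -0.40.

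AT2G34700, annotated as a Pollen Ole e 1 allergen and extensin family protein, had the lowest bzr1-1D ratio of all members. AT2G34700 had 31.5 and 21.2 normalized reads on PAC and 68.9 and 64.2 with GA3. Seedlings on both inhibitors had 17.9 and 10.6, with GA3 there 17.5 and 16.6, and in bzr1-1D 2.70 and 0.947. The fall in bzr1-1D rests on 4 reads against 33. That is 7.77-fold lower with an exact 95% interval, for counting error alone, from 2.76 to 30.2 on the same fold-lower scale. It was too low for limma-voom, and its adjusted p in the authors' deposited table was 0.000263.

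**Figure D4:**
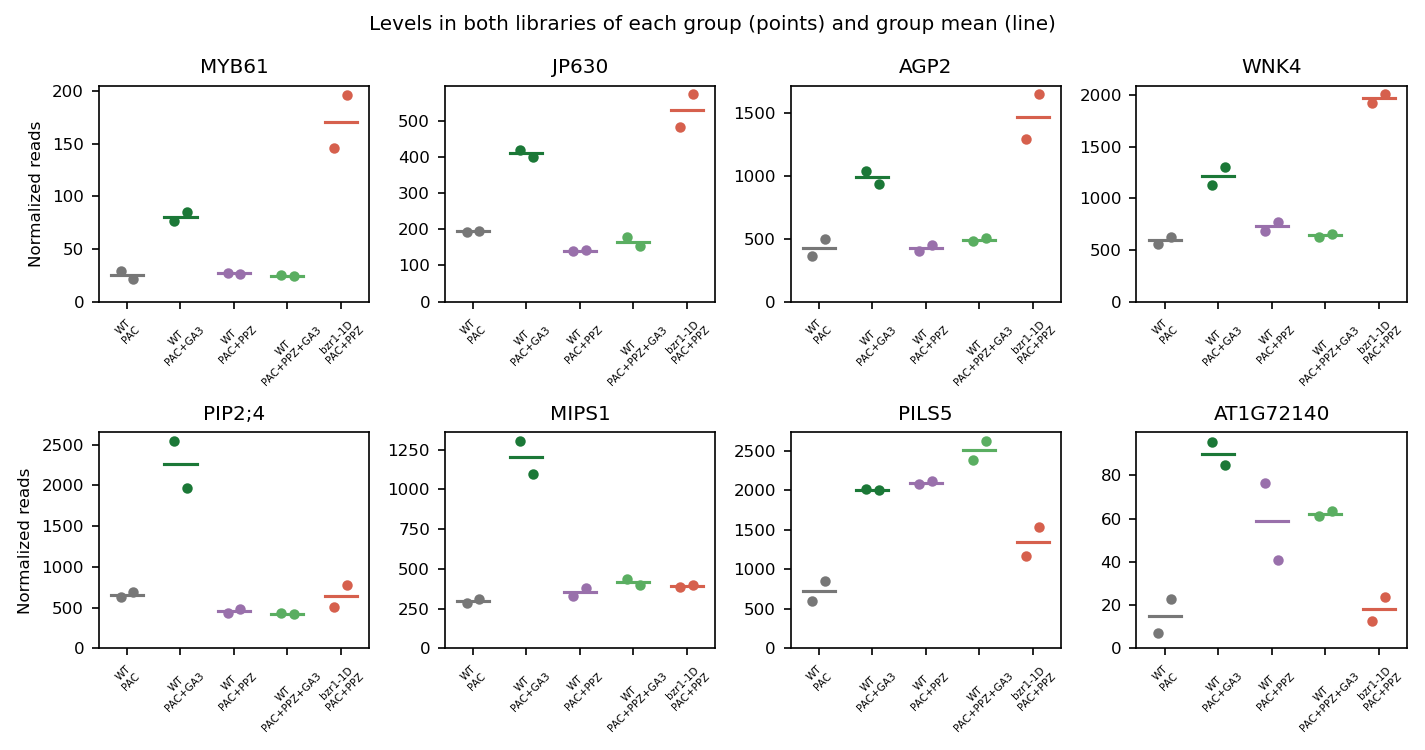
Normalized reads (y axis, from 0) of 8 members in both libraries of each group (points) with the group mean (line). MYB61, JP630, AGP2 and WNK4 are highest in bzr1-1D, PIP2;4 and MIPS1 are highest with GA3 on PAC and far lower in every other group, and PILS5 and AT1G72140 are high on PPZ and lower in bzr1-1D.

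All 3 members with annotated auxin roles were called in bzr1-1D, 2 higher and 1 lower. PILS5 belongs to the PIN-LIKES carriers, which hold auxin in the endoplasmic reticulum and so limit auxin signalling. PILS5 had 603 and 856 normalized reads on PAC and 2017 and 2000.3 with GA3. With PPZ it had 2072 and 2122, with GA3 there 2386 and 2629, and in bzr1-1D 1163 and 1533. PPZ alone brought it to the GA3 level or above, and in bzr1-1D it fell part of the way back, by a log2 change of -0.66 ± 0.11 (SE, limma-voom adjusted p = 0.000321). BRU6, a GH3 enzyme that conjugates auxin to amino acids, rose from 85.3 and 83.3 to 142 and 145 normalized reads, with a log2 change of 0.75 ± 0.14 (SE, limma-voom adjusted p = 0.000793). AT4G17280, annotated only as auxin-responsive, rose from 185 and 213 to 329 and 432.

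Of 7 transcription factor and DNA-binding genes, 4 rose in bzr1-1D and 3 were not called. MYB61, a MYB factor known for roles in stomatal movement, seed mucilage and xylem formation, had the highest ratio of all members. MYB61 had 28.8 and 21.2 normalized reads on PAC and 76.2 and 84.7 with GA3. Wild type with PPZ gave 27.3 and 26.6, with GA3 there 25.4 and 23.9, and in bzr1-1D 146 and 196. Only the GA3-on-PAC and the bzr1-1D libraries stood apart from the rest, and bzr1-1D was the higher of these. Its log2 change was 2.62 ± 0.25 (SE, limma-voom adjusted p = 5.28e-06). In the authors' deposited table its ratio was 6.35. The xylem marker sum given above was also higher in bzr1-1D. That sum was lower in wild-type mock with PPZ, at 2052 beside 3062 on PAC. The MYB61 libraries with PPZ lay within the range of those on PAC. The part of xylem in the MYB61 level was not tested.

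MYB68, a MYB factor known from roots, stood at 39.6 and 60.0 normalized reads on PAC, 81.8 and 87.7 with PPZ and 163 and 178 in bzr1-1D, where it rose by a log2 change of 0.99 ± 0.14 (SE, limma-voom adjusted p = 0.000104). NAC6, a NAC factor that promotes leaf senescence, also rose, from 72.5 and 90.4 with PPZ to 165 and 136 in bzr1-1D, beside 60.3 and 35.3 on PAC. AHL24, an AT-hook DNA-binding protein, rose by a log2 change of 0.73 ± 0.18 (SE, limma-voom adjusted p = 0.00473), which was not called without the deeper wild-type library, at 0.39. KNAT7, a homeobox factor that acts in secondary walls, was at 94.6 and 84.2 with PPZ and 121 and 144 in bzr1-1D. GL2, a homeobox factor of trichomes and root epidermis, was at 68.2 and 82.4 with PPZ and 58.5 and 83.3 in bzr1-1D. Neither was called in the authors' deposited table, although limma-voom called KNAT7 higher at an adjusted p of 0.0114.

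Among 9 signalling genes, 5 rose in bzr1-1D and 2 fell. WNK4 encodes a kinase that lacks the usual catalytic lysine. WNK4 had 555 and 630.0 normalized reads on PAC and 1132 and 1301 with GA3. When PPZ was present it stood at 689 and 773, with GA3 there 629.9 and 654, and in bzr1-1D 1927 and 2014. The bzr1-1D libraries stood above all others, and GA3 on PAC and PPZ left the level slightly below mock. Its log2 change in bzr1-1D was 1.42 ± 0.08 (SE, limma-voom adjusted p = 1.07e-07). HAI1 and ABI2, protein phosphatases that restrain abscisic acid signalling, both rose. HAI1 stood at 28.8 and 49.4 normalized reads on PAC, 82.6 and 101 with GA3, 101 and 72.6 with PPZ, 74.7 and 78.0 with GA3 there and 208 and 263 in bzr1-1D. PPZ brought HAI1 close to its GA3 level, and the log2 change in bzr1-1D from there was 1.42 ± 0.18 (SE, limma-voom adjusted p = 3.97e-05). ABI2 moved less, with a log2 change of 0.55 ± 0.12 (SE, limma-voom adjusted p = 0.00271).

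AT3G55940, annotated as a phosphoinositide-specific phospholipase C, had a large GA3 ratio on PAC. AT3G55940 had 19.8 and 17.6 normalized reads on PAC and 148 and 142 with GA3. PPZ-grown wild type held 9.38 and 11.5, with GA3 there 10.3 and 8.32, and in bzr1-1D 19.8 and 31.2. It was far above every other group in GA3 on PAC, and bzr1-1D, though higher than wild type on PPZ, reached 17.6% of that level. Its log2 change of 1.21 ± 0.37 (SE, limma-voom adjusted p = 0.0174) lost the limma-voom call without the deeper wild-type library, at 1.06, or without the shallower bzr1-1D library, at 0.90.

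PSK2, the precursor of a phytosulfokine growth peptide, and ANNAT3, an annexin, a calcium-dependent membrane-binding protein, fell in bzr1-1D. PSK2 stood at 79.3 and 106 normalized reads on PAC, 200.1 and 182 with GA3, 133 and 167 with PPZ and 103 and 97.5 in bzr1-1D. Its log2 change of -0.58 ± 0.15 (SE, limma-voom adjusted p = 0.0081) lost the limma-voom call without the shallower wild-type library, at -0.42. ANNAT3 stood at 99.1 and 138 on PAC, 342 and 329 with GA3, 289 and 285 with PPZ and 178 and 208 in bzr1-1D, with a log2 change of -0.59 ± 0.11 (SE, limma-voom adjusted p = 0.000928). Both were thus higher on PPZ than on PAC and lower again in bzr1-1D.

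Among 7 genes of membrane transport, 3 rose, 1 fell and 3 were not called. PIP2;4, an aquaporin of the plasma membrane, was lower in all wild-type libraries on PAC and PPZ than in any on PAC alone. PIP2;4 had 624 and 685 normalized reads on PAC and 2545 and 1974 with GA3. Seedlings on both inhibitors had 432 and 486, with GA3 there 428 and 420.2, and in bzr1-1D 501 and 774. Only GA3 on PAC stood high, and bzr1-1D reached 28.2% of that level. The authors' deposited table did not call its ratio of 1.39 in bzr1-1D, at an adjusted p of 0.414, and limma-voom gave a log2 change of 0.43 ± 0.16 (SE, limma-voom adjusted p = 0.0419). ABCG35, an ABC transporter of the pleiotropic drug resistance type, was also called by limma-voom alone, at 0.29 ± 0.09 (SE, limma-voom adjusted p = 0.022).

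MTP11, a manganese transporter, rose in bzr1-1D. MTP11 had 383 and 471 normalized reads on PAC and 1399 and 1246 with GA3. With PPZ it had 365 and 361, with GA3 there 427 and 468, and in bzr1-1D 704 and 819.7. AT2G41190, annotated as an amino acid transporter, rose from 413 and 366 to 725 and 631 normalized reads. Both stayed below the levels in GA3 on PAC, where AT2G41190 was at 1837 and 2093. ALMT1, a malate channel that releases malate from roots under aluminium, rose past that level instead, from 393 and 435 on PAC and PPZ to 1021 and 1154 in bzr1-1D, beside 556 and 568 in GA3 on PAC.

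AT1G72140, a member of the major facilitator superfamily, had the highest ratio of PPZ over no PPZ among the members, at 3.90. AT1G72140 had 7.21 and 22.9 normalized reads on PAC and 95.5 and 84.7 with GA3. Wild type with PPZ gave 76.7 and 40.8, with GA3 there 61.2 and 63.4, and in bzr1-1D 12.6 and 23.7. PPZ alone took it most of the way to the GA3 level, with its libraries far apart, and in bzr1-1D it was close to the level of wild type on PAC. The fall in bzr1-1D was a log2 change of -1.70 ± 0.40 (SE, limma-voom adjusted p = 0.00398).

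Of 14 genes of metabolic enzymes, 5 rose in bzr1-1D and 9 were not called. MIPS1 makes inositol phosphate, the precursor of myo-inositol. MIPS1 had 287 and 312 normalized reads on PAC and 1307 and 1096 with GA3. When PPZ was present it stood at 328 and 381, with GA3 there 438 and 400.4, and in bzr1-1D 385 and 396. It stood high only with GA3 on PAC. Its bzr1-1D libraries lay just above those of wild type on PPZ, with a log2 change of 0.13 ± 0.10 (SE, limma-voom adjusted p = 0.292). GulLO3, annotated as a D-arabinono-1,4-lactone oxidase, and UGT76E1, a glycosyltransferase, also stood high only with GA3 on PAC, with GA3 ratios of 7.16 and 5.71. GulLO3 stood at 235 and 180.4 normalized reads with GA3 on PAC and 49.5 and 61.5 in bzr1-1D, and UGT76E1 at 107 and 97.0 with GA3 on PAC and 19.8 and 15.1 in bzr1-1D. Neither was called in bzr1-1D.

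Of 3 genes of the lipid-transfer protein fold, 2 rose in bzr1-1D. AT4G22460 rose from 18.8 and 26.6 to 55.8 and 75.7 normalized reads, a log2 change of 1.51 ± 0.28 (SE, limma-voom adjusted p = 0.000729), beside 118 and 116 with GA3 on PAC. AT3G22620 rose from 342 and 352 to 618 and 799, and it lies just inside the limit on the GA3 ratio. AT4G12510 stood at 18.0 and 31.8 on PAC, 129 and 167 with GA3, 44.3 and 51.4 with PPZ and 54.9 and 48.3 in bzr1-1D, and was not called.

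Of 3 RNA genes, 1 rose, 1 fell and 1 was not called. MIR156f is a precursor gene of miR156, a microRNA that holds back the change to adult growth by acting on SPL factors. MIR156f had 23.4 and 14.1 normalized reads on PAC and 53.2 and 51.9 with GA3. PPZ-grown wild type held 14.5 and 5.32, with GA3 there 6.35 and 14.6, and in bzr1-1D 61.2 and 43.5. The bzr1-1D libraries lay on either side of the GA3-on-PAC libraries, and all of the wild-type libraries with PPZ were lower. The log2 change in bzr1-1D was 2.48 ± 0.42 (SE, limma-voom adjusted p = 0.000408). The summed reads, 114 against 23, gave a ratio of 5.26 with an exact 95% interval of 3.34 to 8.64 for counting error alone. These reads come from the precursor's locus, which overlaps another annotated gene on the same strand, and do not measure the mature microRNA.
The products annotated by RefSeq at this locus, on TAIR10.1, plus strand, at chr5:9136126-9136145 and chr5:9136197-9136217, are shown with bases 2 to 8, the seed, in capitals. Plant microRNAs pair with their targets along nearly the whole sequence.
ath-miR156f-5p: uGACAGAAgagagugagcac
ath-miR156f-3p: gCUCACUCucuauccgucacc

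The other 20 members are a mixture, of which 10 rose, 2 fell and 8 were not called. AT3G26510, a PB1-domain protein, had the most reads of any member. AT3G26510 had 4107 and 3434 normalized reads on PAC and 7725 and 7650.0 with GA3. Seedlings on both inhibitors had 2457 and 2185, with GA3 there 2579 and 2554, and in bzr1-1D 4179 and 4173. PPZ held it below the PAC level with and without GA3, and in bzr1-1D it stood just above that level, with a log2 change of 0.84 ± 0.08 (SE, limma-voom adjusted p = 4.23e-06). J11, a small chloroplast DnaJ chaperone, rose from 1099.7 and 1032 to 1385 and 1523, beside 2739 and 2894 with GA3 on PAC. AT2G27830, an uncharacterized protein, rose from 650.5 and 711 to 841 and 959.8, which was not called without the deeper wild-type library, at a log2 change of 0.32.

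AT5G16030 followed another course. AT5G16030 had 1229 and 1082 normalized reads on PAC and 2318 and 2645 with GA3. With PPZ it had 711 and 697, with GA3 there 671 and 678, and in bzr1-1D 611 and 436. Both PPZ groups of wild type were below PAC, and bzr1-1D was lower still, without overlap. The authors' deposited table did not call it in bzr1-1D, at an adjusted p of 0.114, and limma-voom gave a log2 change of -0.45 ± 0.12 (SE, limma-voom adjusted p = 0.0101). AT2G17300, an uncharacterized protein with a GA3 ratio of 3.46, rose from 23.9 and 29.2 to 74.7 and 100.3 normalized reads.

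TRM10, whose promoter is printed above, fell in bzr1-1D. TRM10 had 23.4 and 22.9 normalized reads on PAC and 59.7 and 54.7 with GA3. Wild type with PPZ gave 23.0 and 25.7, with GA3 there 19.1 and 27.0, and in bzr1-1D 5.40 and 6.63. It was lowest in bzr1-1D, with 13 reads against 56, and 4.06-fold lower with an exact 95% interval of 2.19 to 8.09 on that scale for counting error alone. Its log2 change was -1.95 ± 0.38 (SE, limma-voom adjusted p = 0.00123). AT3G44326, an F-box protein, stood at 42.3 and 51.2 on PAC, 106 and 92.9 with GA3, 182 and 136 with PPZ, 201 and 167 with GA3 there and 70.2 and 70.0 in bzr1-1D. It was highest on PPZ and fell in bzr1-1D by a log2 change of -1.17 ± 0.18 (SE, limma-voom adjusted p = 0.000207).

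The members differed in their level with PPZ alone, within the limits of 0.5 and 4 that the rule set. Their ratio of PPZ over no PPZ in mock ranged from 0.528 to 3.90 with a median of 1.05. It was below 1 in 39 and above 1 in 42, which is a description only. In 7 members the PPZ mock mean was above the GA3-on-PAC mean. Those were PILS5, PMSR2, SDR3, AT3G44326, TPPB, MLO12 and ELF5A-1, named after their values were seen. In these, a GA3 ratio near 1 on PPZ was found at a level as high as or higher than GA3 gave without PPZ.

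Of the 13 members with a PPZ ratio under 0.67, 8 rose in bzr1-1D, 2 fell and 3 were not called. Of 47 in between, 27 rose, 2 fell and 18 were not called. Of 21 with a PPZ ratio of 1.5 or more, 8 rose, 5 fell and 8 were not called. The median bzr1-1D ratios were 1.94, 1.54 and 1.08. Over all members 53.1% rose and 11.1% fell. Of all GA3-raised genes 60.1% were higher and 7.46% lower, and of all genes tested 14.5% and 15.0%. The PPZ ratio and the bzr1-1D ratio share the wild-type PAC and PPZ mean, which stands above the line in the first and below it in the second, so these numbers are set side by side without a test. Of the 8 higher at a PPZ ratio of 1.5 or more, HAI1, ALMT1, AT1G47480 and MYB68 were at least 2-fold higher.

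**Figure D5:**
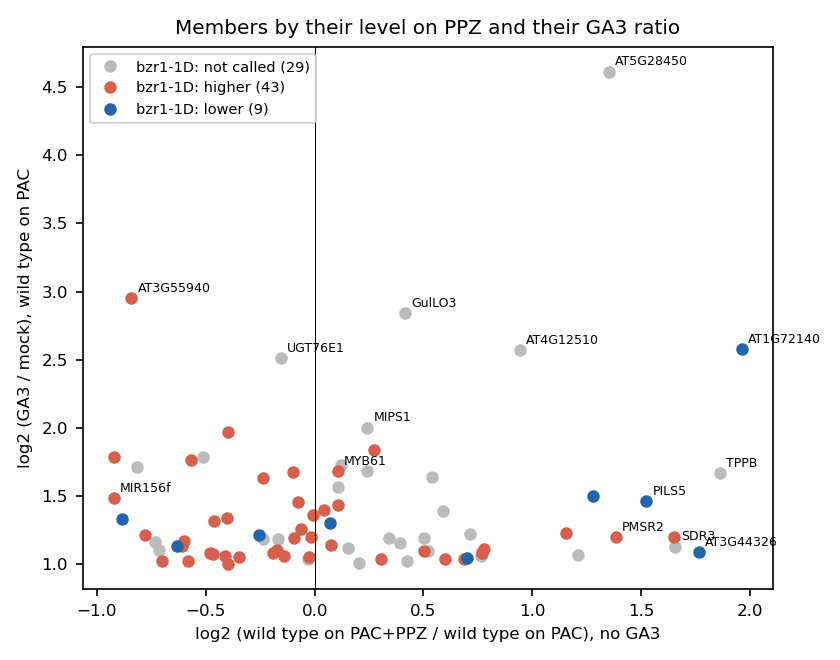
Each point is a member, by its log2 ratio of PPZ over no PPZ in mock (x axis) and its log2 ratio of GA3 over mock on PAC (y axis), coloured by the call in bzr1-1D (43 higher, 9 lower, 29 not called). Most points sit just above 1 on the y axis, the 2-fold limit of the rule, and 5 of the 9 lower members lie at a PPZ ratio of 1.5 or more.

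Members were also counted in family lists made by gene symbol, which take in fewer of the members than the roles above and leave out, for example, PILS5, GL2, KNAT7 and ALMT1. Of lists of genes at 50 or more with GA3 on PAC, the members held 0 of 20 Aux/IAA, 0 of 15 SAUR, 0 of 10 auxin carrier and 0 of 22 xyloglucan endotransglucosylase genes. They held 1 of 7 GH3 genes, 1 of 21 expansins, 1 of 46 pectin enzymes and 1 of 28 aquaporins. They held 0 of 41 secondary wall and lignin genes, 0 of 44 cell cycle, 0 of 44 ribosomal protein and 0 of 96 cytochrome P450 genes, and 0 of 32 ethylene, 0 of 9 peroxidase and 0 of 49 wax, cutin and suberin genes. Also counted were 3 of 188 named transcription factors, 2 of 45 arabinogalactan and other wall proteins, 1 of 35 glycosyltransferases, 1 of 59 peptide and receptor kinase genes and 2 of 138 transporters. With 81 members among 16061 genes, lists of this size hold few or none at the background rate, so neither a 0 nor a 1 is read as a result, and no test was made.

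Some genes of the hormone pathways themselves were called with GA3 both without and with PPZ. For comparison, 12.9% of all genes tested were called higher with GA3 on PAC, and 13.3% either way on PAC and PPZ. In bzr1-1D 14.5% of all genes tested were higher and 15.0% lower. The share lower with GA3 on PAC was not computed, and no test was made of these short lists. Of 17 gibberellin pathway genes, the authors' deposited table called 6 higher and 7 lower with GA3 on PAC and 6 higher and 8 lower on PAC and PPZ. GA20OX2, an enzyme of gibberellin synthesis, averaged 3681 normalized reads on PAC and 537 with GA3, and 1502 on PAC and PPZ and 135 with GA3 there. In bzr1-1D 6 of the 17 were higher. Of 14 brassinosteroid pathway genes, GA3 raised 9 and lowered 2 on PAC and raised 7 and lowered 1 with PPZ, and bzr1-1D had 6 higher and 4 lower. BR6OX2, a late enzyme of brassinosteroid synthesis, averaged 1739 on PAC, 5602 with PPZ and 504 in bzr1-1D. The wild-type PAC and PPZ libraries serve both the GA3 and the bzr1-1D comparison.

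The counts of several members are uncertain. AT5G28450, annotated as a chlorophyll-binding protein, has the highest GA3 ratio, 24.5. AT5G28450 had 5.40 and 1.76 normalized reads on PAC and 1.84 and 174 with GA3. When PPZ was present it stood at 7.67 and 10.6, with GA3 there 4.77 and 11.4, and in bzr1-1D 5.40 and 0.947. That ratio rests on the shallower GA3 library alone, and 71.9% of the gene lies in copies with at least 95% identity elsewhere in the genome. AT2G01020 is a ribosomal RNA gene that lies wholly in such copies. It stood at 17.9 and 34.6 normalized reads in wild type with PPZ and 6.30 and 8.52 in bzr1-1D, where it fell by a log2 change of -1.71 ± 0.45 (SE, limma-voom). For ELF5A-1, a translation factor, the libraries split within pairs, at 196 and 105 with PPZ and 93.7 and 201 with GA3 there.

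Overlap with a neighbouring gene touched 19 members, 15 of them with a gene on the other strand, among them PILS5, AT3G26510, AT5G16030, UGT76E1 and GL2. Whether reads were counted by strand is not given in the sources used here, so reads of such a gene and its partner cannot be told apart. WNK4 and AT5G58340 are neighbours that overlap on the same strand, and both are members. AT5G58340 was not called in bzr1-1D, at 188 and 167 with PPZ in wild type and 188 and 227 in bzr1-1D, while WNK4 rose. Among the 74 protein-coding members that were called with GA3 on PAC and whose libraries there did not overlap, 41 rose and 8 fell in bzr1-1D. Over all genes tested, 14.5% were higher and 15.0% lower. The members lay on all 5 chromosomes, at 19, 14, 15, 12 and 21 from chromosome 1 to 5, and WNK4 and AT5G58340 were the only adjacent pair.

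Genes on either side of a limit differ little. For the GA3 ratio on PAC, AT3G22620, COR314-TM2 and AT2G34355 were just inside at 2.000, 2.011 and 2.032, and AT5G47530, AT5G57770 and AT5G38010 just outside at 1.997, 1.988 and 1.978. For the level with GA3, AT1G67920, MIR156f and MLO12 were inside at 52.3, 52.6 and 55.3 normalized reads, and AGP3, AT1G73340 and AT5G01200 outside at 48.7, 48.0 and 47.8. At the upper end of the GA3 ratio on PAC and PPZ, AT3G44510, MTP11 and AT1G30080 were inside at 1.23 each, and BCA6, CP12-3 and STY46 outside at 1.26 each.

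At the lower end of that ratio, AT2G21100, AT4G39110 and HAI1 were inside at 0.832, 0.839 and 0.877, and AT1G78860, AT3G05640 and AGP19 outside at 0.795, 0.789 and 0.784. For PPZ over no PPZ, MIR156f, AT2G17300 and AT2G34700 were inside the lower limit at 0.528, 0.528 and 0.541, and AT5G34780, SEN1 and HGO outside at 0.496, 0.494 and 0.491. At the upper limit AT1G72140, TPPB and AT3G44326 were inside at 3.90, 3.64 and 3.40, and UGT72E2, AT5G38100 and AT2G41380 outside at 4.07, 4.16 and 4.68.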

How the data were processed

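RNA of 10 libraries, 2 in each of 5 groups, was sequenced in barcoded pools of 6, per the labels' protocols, which tie no pool to a library. The authors deposited 3 tables, one per comparison. Per the file headers, the signal columns are group means of read counts divided by size factors, called normalized reads here. The deposited fold is the ratio of these means. Deposited p-values, raw and adjusted, are from DESeq as run by the authors, per the file headers. TopHat and DESeq are the tools in the submitters' processing notes. Not given in the sources used here are versions, genome build, annotation, counting program and use of strand.

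Because a low mean is built from whole multiples of 2 steps, 1 per library, the reads of both libraries could be recovered for 99.6 to 100% of the genes above 0 in a group, a step tested on simulated data. Levels per library are reads divided by the size factors of the deposited means. Ratios and the choice of members use the deposited means. Those size factors were 0.983 to 0.993 times factors computed over all libraries together. The 5 rows of a table that name no gene were left out. Reads depend on gene length, so levels are compared between groups, not between genes.

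A member was called when the adjusted p of the authors' DESeq test was under 0.05. limma-voom (limma 3.58.1, R 4.3.3), fitted to all genes averaging 10 or more normalized reads in the 4 libraries, gave log2 changes, SE and Benjamini-Hochberg adjusted p. Exact 95% intervals come from the binomial split of the reads and cover counting error only. Names came by locus from RefSeq on TAIR10.1, which held 32709 of the 33518 identifiers and all 81 members, 41 with a symbol. Promoter windows of 250 bases end at the RefSeq gene start. Copies were searched with BLAST 2.17.0.

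The members, gene lists and named genes were chosen with earlier results of these data known. Named were the 10 members with the highest GA3 level, the 10 with the largest GA3 ratio, up to 8 with the largest called change each way in bzr1-1D, members of the family lists, and genes at each limit. Others with a known role were named after their values were seen. Alternatives were other limits of the rule, joint scaling, limma-trend, other filters and scalings, and each library left out.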

Additional observations from a re-analysis of the deposited data

Results flagged for a closer look

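In 8 members every GA3 library was above every mock library on PAC and below every mock library with PPZ. With 2 libraries a group, 28.8% of all genes tested were below in this way with PPZ. The rule chose the members on both GA3 ratios and keeps the second above 0.8, so the difference between them was not tested and these are values only. The GA3 ratios on PAC and PPZ were 0.839 for AT4G39110, a receptor-like kinase, 0.879 for WNK4, 0.879 for AT1G47480, an alpha/beta-hydrolase, and 0.907 for ALMT1. They were 0.916 for MYB61, 0.923 for PIP2;4, 0.924 for ABCG35 and 0.958 for AT5G16030. In the authors' deposited table none of these 8 was called with GA3 on PAC and PPZ. Of the 8, WNK4, AT1G47480, ALMT1 and MYB61 rose in bzr1-1D. Over all members 53.1% rose, and 60.1% of all GA3-raised genes and 14.5% of all genes tested were higher. The rise is therefore not given as particular to these 8.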

How the results depend on the processing

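The number of members depends on the limits of the rule. A minimum of 20 normalized reads gave 130 genes and a GA3 ratio of 1.5 gave 395, a ratio of 3 gave 20, a window of 0.67 to 1.5 on PAC and PPZ gave 161, and a PPZ window of 0.67 to 1.5 gave 47. Leaving out 1 wild-type library gave 72 to 136, the latter without the shallower library on PAC. These lists kept 59 to 74 of the 81. Scaling all libraries together gave 82, including all 81. In bzr1-1D the 20 genes at a GA3 ratio of 3 had 8 higher and 1 lower. The 47 of the narrower PPZ window had 27 and 2, and the 58 with at least 100 normalized reads 33 and 4. Beside these, 14.5% of all genes tested were higher and 15.0% lower. Over the limma alternatives 46 to 47 members were higher, where 18.5 to 23.2% of genes were, and 10 to 11 lower, where 18.7 to 23.5% were. Each library was also left out in turn, where the lone library is assumed to vary like the others. In those last fits 5, 1, 3 and 3 called members lost the call and none changed sign. Among the 74 protein-coding members without doubtful libraries, an alternative chosen after seeing the data, 41 or 55.4% were higher and 8 or 10.8% lower. No paired analysis was possible because the columns carry no replicate number. Members with few reads, such as AT2G34700 with 4 in bzr1-1D, limit what can be said of size.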
